A study of Mus musculus with 16 samples.

Results

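Histone H3 trimethylated at lysine 4 (H3K4me3) was compared with H3 acetylated at lysine 27 (H3K27ac) at the promoters of normal endosteal mesenchymal stromal cells (MSCs), the fibroblast-like cells of the inner bone surface. The comparison used the 2 libraries titled H3K4me3 and the 2 titled H3K27ac of Bap1 WT cells, 4 of the 16 libraries of a chromatin immunoprecipitation and sequencing (ChIP-seq) series on the loss of the deubiquitinase BAP1. The WT cells came from C57BL/6J mice with the genotype Bap1fl/fl, which carry the floxed allele without the Cre recombinase. The same contrast in Bap1 cKO cells (Prx1-cre;Bap1fl/fl, where the Prx1 enhancer drives Cre in limb mesenchyme) is given once, with 4 further libraries. Age, sex and the number of animals behind a library are not given in the labels. All 3789 autosomal genes of the 3925 in the deposited table were taken, and a promoter is the 4 kb centred on the gene start. The table covers these genes only, each marked UP or DOWN by the authors in a contrast that the available descriptions leave out, so it is not a sample of all mouse promoters.

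H3K4me3 is placed by the SET1 and MLL families of methyltransferases and marks the first nucleosomes of active and poised promoters, mostly at CpG islands. H3K27ac is placed by the acetyltransferases p300 and CBP and marks active promoters and active enhancers alike, so it is usually found more widely around a gene. Lysine 27 can carry either an acetyl group or the methyl groups placed by Polycomb repressive complex 2, but not both at once. A promoter with H3K4me3 and little acetylation is therefore often described as poised, and one carrying both H3K4me3 and H3K27me3 as bivalent.

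Promoters of each kind are shown by the 300 bases from 250 before to 50 after the RefSeq start (build GRCm38.p6, 5′ to 3′ on the gene's strand), with every CG dinucleotide in capitals. Junb (chr8:84978699-84978998, minus strand), with 21 CG, and Vim (chr2:13574061-13574360, plus strand), with 11, stand for promoters rich in both marks. Kitl (chr10:100015571-100015870, plus strand), with 28 CG, and Cxcl12 (chr6:117168285-117168584, plus strand), with 20, are rich in H3K4me3 only. Igfbp6 (chr15:102143936-102144235, plus strand), with 8 CG, and Col1a2 (chr6:4505368-4505667, plus strand), with 13, are rich in H3K27ac only.
Junb: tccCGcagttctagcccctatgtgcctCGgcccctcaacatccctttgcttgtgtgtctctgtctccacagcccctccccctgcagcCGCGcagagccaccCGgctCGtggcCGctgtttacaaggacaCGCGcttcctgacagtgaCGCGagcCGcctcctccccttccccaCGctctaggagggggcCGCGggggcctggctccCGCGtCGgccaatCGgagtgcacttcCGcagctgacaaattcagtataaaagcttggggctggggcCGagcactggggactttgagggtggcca
Vim: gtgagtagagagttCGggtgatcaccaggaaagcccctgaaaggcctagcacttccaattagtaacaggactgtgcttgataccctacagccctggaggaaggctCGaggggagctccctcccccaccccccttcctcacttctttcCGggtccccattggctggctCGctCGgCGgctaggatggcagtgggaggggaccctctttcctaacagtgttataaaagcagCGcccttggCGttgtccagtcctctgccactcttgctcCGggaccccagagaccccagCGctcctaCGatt
Kitl: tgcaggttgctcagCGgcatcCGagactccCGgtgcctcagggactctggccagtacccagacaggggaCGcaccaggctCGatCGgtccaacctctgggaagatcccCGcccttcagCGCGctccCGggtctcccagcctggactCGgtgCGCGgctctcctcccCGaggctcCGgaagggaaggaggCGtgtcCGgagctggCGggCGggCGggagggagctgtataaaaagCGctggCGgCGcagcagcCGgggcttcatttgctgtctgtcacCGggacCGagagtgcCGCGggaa
Cxcl12: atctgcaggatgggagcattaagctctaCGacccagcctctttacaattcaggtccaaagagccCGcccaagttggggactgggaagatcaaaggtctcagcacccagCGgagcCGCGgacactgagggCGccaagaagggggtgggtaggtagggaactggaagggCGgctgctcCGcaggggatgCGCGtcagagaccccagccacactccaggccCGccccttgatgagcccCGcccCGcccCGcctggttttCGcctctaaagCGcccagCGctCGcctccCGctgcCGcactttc
Igfbp6: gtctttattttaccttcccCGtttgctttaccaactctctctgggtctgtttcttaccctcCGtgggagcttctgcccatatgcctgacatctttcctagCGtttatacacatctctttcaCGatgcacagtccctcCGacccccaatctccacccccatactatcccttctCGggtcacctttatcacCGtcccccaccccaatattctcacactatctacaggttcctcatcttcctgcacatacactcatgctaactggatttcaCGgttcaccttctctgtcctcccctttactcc
Col1a2: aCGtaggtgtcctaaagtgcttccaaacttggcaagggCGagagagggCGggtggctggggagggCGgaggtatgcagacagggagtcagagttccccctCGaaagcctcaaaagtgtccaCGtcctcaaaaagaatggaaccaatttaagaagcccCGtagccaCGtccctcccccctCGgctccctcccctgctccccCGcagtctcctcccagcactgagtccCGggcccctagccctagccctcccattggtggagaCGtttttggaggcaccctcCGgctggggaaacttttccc
The ratio of observed to expected CG was 0.666 in Junb and 0.421 in Vim, 0.794 in Kitl and 0.639 in Cxcl12, and 0.614 in Igfbp6 and 0.47 in Col1a2. No comparison of base composition between the promoter groups is given, because a RefSeq sequence was found for 65.5% of the genes only, under the 80% such a check needs.

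The antibody field of the libraries titled H3K4me3 names anti-acetyl-H3K27, and that of the libraries titled H3K27ac names anti-trimethyl-H3K4. The titles were followed throughout; if the antibody fields were right instead, every sign below would be turned. The 10 kb windows of the 3789 genes held 6019082 and 7540707 counts in the H3K4me3 libraries, against 2953022 and 3777200 in the H3K27ac libraries, so H3K27ac levels rest on fewer reads. Each read was counted in 3 neighbouring bins, so these totals are about 3 times the reads. Promoter levels are given as CPM, counts scaled to the window total of the library, after TMM scaling on promoters. TMM makes the typical promoter equal in both marks, and log2 H3K4me3 over H3K27ac therefore says how far a promoter departs from the typical one, not which mark is more abundant. The 2 libraries of a mark correlated across promoters with Pearson's r of 0.984 for H3K4me3 and 0.971 for H3K27ac (log2 CPM, 3767 promoters with enough counts). Whether the paired libraries are separate animals or preparations is not stated in the labels, and the p-values therefore reflect library-to-library spread that could be purely technical.

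Of 12 stromal markers, 8 were measured. Cxcl12, Col1a1 and Col1a2, whose values follow, were above the median of all promoters in both marks, and Twist2, a mesenchymal transcription factor, had 503.4 and 497.8 CPM of H3K4me3 and 430.1 and 416.7 CPM of H3K27ac. Col3a1, a fibrillar collagen, had 266.7 and 222.2 CPM of H3K4me3 and 287.5 and 216.3 CPM of H3K27ac. Closer to the median of all promoters were the endoglin gene Eng, with 168.9 and 160.7 CPM and 194.0 and 190.0 CPM, and the adhesion molecule gene Vcam1, with 136.2 and 141.3 CPM and 154.2 and 139.0 CPM. Thy1, a surface marker of many stromal cells, was low, with 13.21 and 19.54 CPM of H3K4me3 and 56.6 and 41.41 CPM of H3K27ac. The 5 measured blood cell markers (Cd34, Cd68, Fcer1g, Lcp1 and Lyz2) had medians of 29.05 CPM of H3K4me3 and 50.56 CPM of H3K27ac, and none was rich in either mark. The highest, Fcer1g, a subunit of Fc receptors on myeloid cells, had 105.7 and 82.27 CPM of H3K4me3 and 213.0 and 196.6 CPM of H3K27ac, the second above the median of all promoters. Endothelial and mural markers (4 measured) had medians of 39.24 and 57.0 CPM. Over all promoters the medians were 160 CPM of H3K4me3 and 138.8 CPM of H3K27ac.

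The 2 marks shared most of their richest promoters. A promoter was called rich in a mark when it lay in the top 10% of the mean of the 2 libraries, which is 379 promoters for each mark. Rich in both were 219 promoters, 57.8% of the H3K4me3-rich and 57.8% of the H3K27ac-rich ones; 160 were rich in H3K4me3 only, 160 in H3K27ac only and 3250 in neither. The cut fell at 406.68 CPM for H3K4me3, between promoters at 407.108 and 406.57 CPM, and at 389.89 CPM for H3K27ac, between promoters at 390.143 and 389.83 CPM. Since the classes are cut from these values, they are a description without a test. Classed on each replicate number alone, 187 promoters were rich in both marks in all 4 libraries. No H3K4me3-rich promoter had H3K27ac below the median of all promoters, whereas 14 H3K27ac-rich promoters had H3K4me3 below its median. Of the 378 promoters in the lowest 10% of each mark, 245 were shared. Across the 3789 promoters the marks correlated with Pearson's r of 0.875 (log2 CPM) and Spearman's rho of 0.873, and over the 1635 promoters above the median in both with 0.606 and 0.579. These are correlations across genes of the same libraries and share their mapping and window positions.

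**Figure D1:**
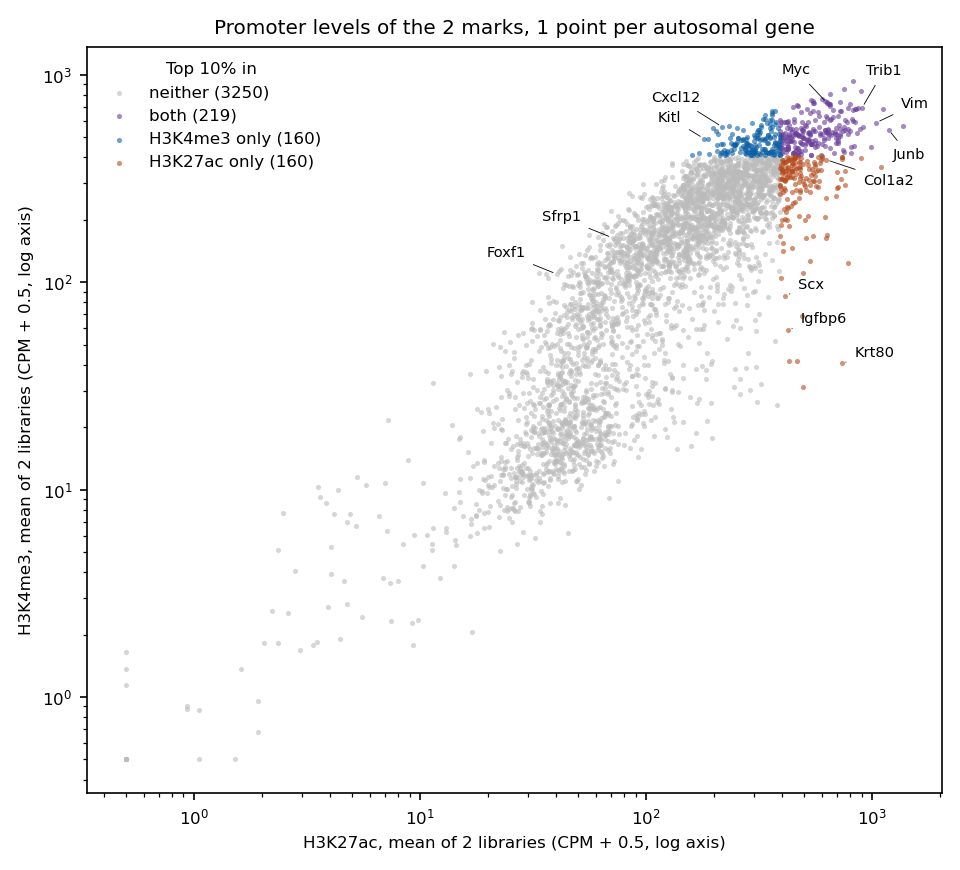
Each point is a promoter, with its mean H3K27ac level (x axis) and mean H3K4me3 level (y axis) in CPM plus 0.5 on log axes, coloured by class. The points form a band, from which the H3K27ac-rich promoters Krt80, Igfbp6 and Scx lie far below and no H3K4me3-rich promoter lies as far to the left.

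Promoters rich in both marks had medians of 519.0 CPM of H3K4me3 and 534.0 CPM of H3K27ac and were called higher in H3K4me3 at 51 and in H3K27ac at 73 of the 219. Trib1, a pseudokinase that directs degradation of C/EBP factors, had 685.5 and 694.7 CPM of H3K4me3 and 925.0 and 874.8 CPM of H3K27ac. Hivep2, a zinc finger transcription factor, had 697.0 and 772.2 CPM of H3K4me3 and 775.3 and 661.7 CPM of H3K27ac, values that overlap. Zfp703, a transcriptional corepressor, had 694.3 and 674.5 CPM of H3K4me3 and 1179.0 and 1057.0 CPM of H3K27ac. All 3 genes were thus high in all 4 libraries, with Trib1 and Zfp703 carrying more H3K27ac than their H3K4me3 level would give at a typical promoter. Irs2, the adaptor of insulin and IGF receptors, averaged 687.3 ± 15.3 CPM of H3K4me3 and 778.6 ± 0.5 CPM of H3K27ac (SD, n = 2 each). Itprip, Klf9, Ier2 and Ttc41 were the other genes that ranked highest in the lower of their 2 percentile ranks.

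In 3 promoters rich in both, H3K27ac was higher by at least 2-fold, all chosen after their values were seen. Junb, an AP-1 transcription factor, had 522.5 and 561.9 CPM of H3K4me3 against 1136.0 and 1225.0 CPM of H3K27ac. Neat1, the long noncoding RNA that scaffolds paraspeckles, had 567.5 and 558.9 CPM of H3K4me3 against 1290.0 and 1448.0 CPM of H3K27ac, the highest H3K27ac level of all promoters. Fosl1, the AP-1 factor FRA-1, had 468.0 and 431.4 CPM of H3K4me3 against 952.2 and 1029.0 CPM of H3K27ac. The H3K27ac libraries lay above both H3K4me3 libraries in each gene, and log2 H3K4me3 over H3K27ac was -1.12 ± 0.08, -1.28 ± 0.07 and -1.14 ± 0.08 (SE) for Junb, Neat1 and Fosl1.

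Promoters rich in H3K4me3 only included those of Kitl and Cxcl12, which encode stromal factors for blood stem cells. Kitl, the gene of stem cell factor, the ligand of the receptor KIT, had 503.2 and 479.7 CPM of H3K4me3 against 185.8 and 173.2 CPM of H3K27ac. Cxcl12, the chemokine that retains blood stem cells in the marrow, had 576.7 and 540.3 CPM of H3K4me3 against 251.3 and 182.7 CPM of H3K27ac. The H3K4me3 libraries did not overlap the H3K27ac libraries in either gene, and log2 H3K4me3 over H3K27ac was 1.45 ± 0.11 for Kitl and 1.37 ± 0.11 for Cxcl12 (SE; adjusted p = 3.192e-21 and 7.707e-17, edgeR quasi-likelihood test with Benjamini-Hochberg adjustment). L3mbtl3, a reader of methylated lysine, departed furthest in this class, with 522.4 and 582.5 CPM of H3K4me3 against 199.2 and 195.2 CPM of H3K27ac (log2 1.49 ± 0.11). Fat4, a giant cadherin of tissue polarity, had 530.3 and 534.4 against 208.2 and 199.5 CPM. Wnt5a, a ligand of non-canonical Wnt signalling, had 429.4 and 428.5 CPM of H3K4me3 against 214.5 and 196.1 CPM of H3K27ac (log2 1.06 ± 0.11). Caskin2, Gtse1, Kif20b and Kif26b completed the genes named by size of difference, at log2 1.29 to 1.39, of which Gtse1 (a microtubule-binding protein of dividing cells) and Kif20b (a kinesin of cytokinesis) serve cell division. Even in these genes H3K27ac was not low, since it lay above its median over all promoters: the 160 promoters had medians of 457.8 CPM of H3K4me3 and 303.0 CPM of H3K27ac, and 18 of them differed by at least 2-fold.

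Of the 160 promoters rich in H3K27ac only, 38 differed by at least 2-fold, and the median log2 was -0.61, against 0.66 in those rich in H3K4me3 only. Krt80, an epithelial keratin, had 43.58 and 36.43 CPM of H3K4me3 against 716.4 and 747.7 CPM of H3K27ac, which is log2 -4.20 ± 0.13 (SE; adjusted p = 5.761e-55, edgeR quasi-likelihood test with Benjamini-Hochberg adjustment). Igfbp6, a binding protein of insulin-like growth factors, had 63.63 and 53.2 CPM of H3K4me3 against 467.0 and 379.4 CPM of H3K27ac (log2 -2.86 ± 0.13). Scx, the transcription factor scleraxis of tendon progenitors, had 84.73 and 86.49 CPM of H3K4me3 against 425.2 and 400.2 CPM of H3K27ac (log2 -2.27 ± 0.13). All 3 had H3K4me3 below the median of all promoters together with H3K27ac in the top 10%. Hhipl1, a secreted relative of the hedgehog-binding protein HHIP, had 165.8 and 167.5 CPM of H3K4me3 against 562.7 and 535.7 CPM of H3K27ac. Cflar, the inhibitor of caspase-8, had 173.0 and 152.2 CPM of H3K4me3 against 468.8 and 554.3 CPM of H3K27ac. The noncoding RNA genes Wincr1 and Morrbid had log2 values of -1.93 ± 0.13 and -1.60 ± 0.09. Fth1, the ferritin heavy chain, had 124.5 and 96.5 CPM of H3K4me3 against 504.6 and 482.5 CPM of H3K27ac (log2 -2.16 ± 0.12), but only 2.42% and 2.71% of its H3K4me3 counts in the 10 kb lay within 1 kb of the listed start, and over the whole 10 kb its log2 was -0.46. Of the 38 promoters, 33 had a focal H3K27ac signal, with a density within 1 kb at least 2 times that at 3 to 5 kb. So had 148 of the 160 promoters rich in H3K27ac only (92.5%) and 64.4% of all promoters.

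**Figure D2:**
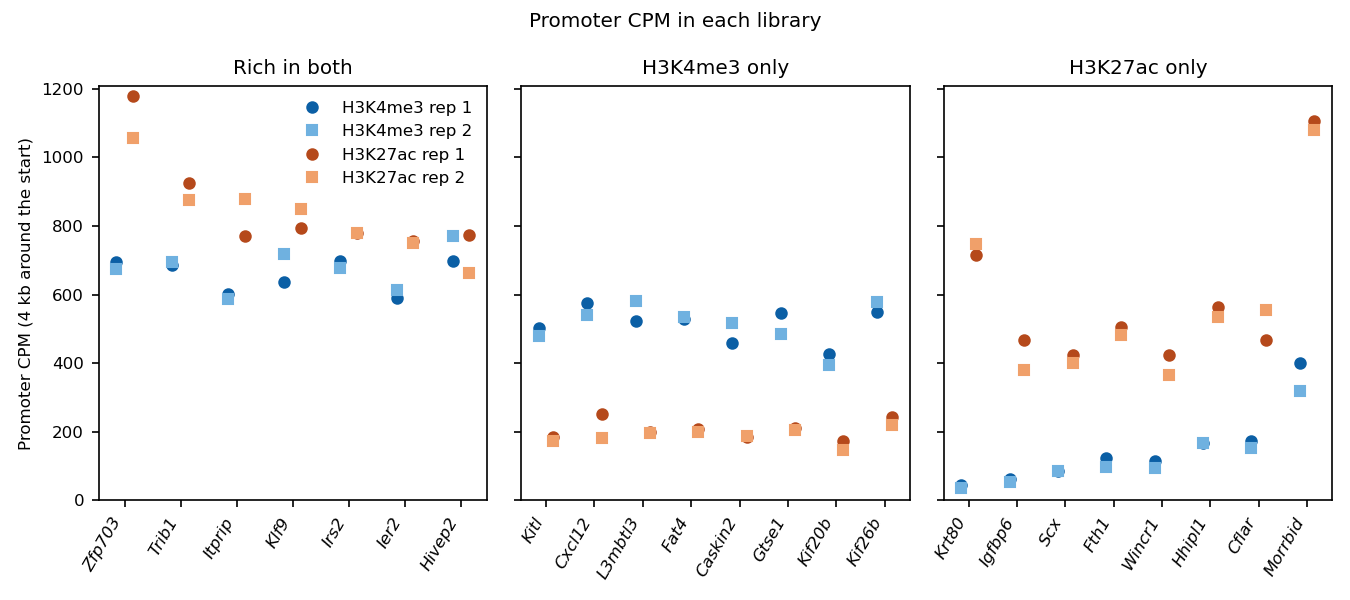
Promoter CPM in each library (blue H3K4me3, left of each pair; orange H3K27ac, right; circles replicate 1, squares replicate 2) for genes named by class. In H3K4me3-only genes such as Kitl both H3K4me3 points lie above both H3K27ac points, and in H3K27ac-only genes such as Krt80 (43.58 and 36.43 against 716.4 and 747.7 CPM) the order is turned.

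Of 3767 promoters with enough counts, 1305 (34.6%) had a higher ratio of H3K4me3 to H3K27ac than the typical promoter, and 1229 (32.6%) a lower one. Together these were 2534 (67.3%; edgeR quasi-likelihood test, Benjamini-Hochberg adjusted p at or under 0.05). They are called higher in H3K4me3 and higher in H3K27ac, which does not compare the level of a mark with that at other promoters. With a fold of at least 2 added, 213 (5.65%) were higher in H3K4me3 and 705 (18.7%) in H3K27ac. The libraries of the 2 marks did not overlap at 3147 promoters (83.5%). The split rests on the scaling: with TMM factors from the 10 kb windows, which moved the median of all promoters by 0.30 on the log2 scale, 1866 promoters were higher in H3K4me3 and 866 in H3K27ac, and without TMM factors (median 0.27) 1804 and 897. The lowest p towards H3K4me3 belonged to L3mbtl3, Kitl, Fat4, Smoc2 and Caskin2. Smoc2, a matricellular protein, was outside the rich classes, with 368.7 and 377.6 CPM of H3K4me3 against 135.9 and 124.5 CPM of H3K27ac (log2 1.52 ± 0.12). Krt80, St6galnac6, S100a3 and Igfbp6 were among those of lowest p towards H3K27ac. St6galnac6, a sialyltransferase, and S100a3, a calcium-binding protein, lay at log2 -3.35 ± 0.15 and -3.27 ± 0.16.

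Most of the 705 promoters with at least 2-fold more H3K27ac had little of either mark. Their medians were 17.89 CPM of H3K4me3 and 55.13 CPM of H3K27ac, and 582 of them (82.6%) lay in the lowest 25% of H3K4me3. A focal H3K27ac signal was present at 162 (23.0%), against 64.4% of all promoters; the other 543 had medians of 15.92 and 47.25 CPM. The flanks 3 to 5 kb from the gene starts, on the same scale, held 29.59 and 30.26 CPM per 4 kb in the H3K4me3 libraries and 67.96 and 66.9 CPM in the H3K27ac libraries, a log2 of -1.17, and promoters in the lowest 10% of both marks had a median log2 of -1.25. The flanks and the lowest promoters thus lay past 2-fold towards H3K27ac on this scale, and the part of this background in the 705 calls was not tested. Input libraries were not used here.

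Promoters with at least 2-fold more H3K4me3 were of another kind. They had a clear H3K4me3 signal and less H3K27ac than the typical promoter, traits tied to the 2-fold rule itself. They also more often carried a Polycomb mark, which the rule did not use. Their medians were 218.1 CPM of H3K4me3 and 91.18 CPM of H3K27ac, and 211 of the 213 had a focal H3K4me3 signal (99.1%, against 79.4% of all). In the top 10% of H3K27me3 of the same WT cells were 48 of the 213 (22.5%), against 39 of the 705 with more H3K27ac (5.53%) and 10.0% of all promoters. Levels of the Polycomb marks are CPM without TMM scaling, and so not on the scale of the other marks. The median H3K27me3 level of the 213 was 125.6 and 122.8 CPM in the 2 libraries, against 76.18 and 83.13 CPM over all promoters. For H2AK119ub1, the ubiquitin mark of Polycomb repressive complex 1, it was 147.0 and 131.6 CPM against 108.3 and 106.0 CPM. Both libraries of each Polycomb mark thus lay above both values for all promoters. Conversely, none of the 219, 160 and 160 promoters of the rich classes was in the top 10% of H3K27me3, while 9, 14 and 0 of them were in the top 10% of H2AK119ub1. These are counts of promoters, described beside all promoters with no test.

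Predicted, clone, receptor-cluster and unnamed genes and overlapping windows were left out of the 213 here. Of the rest, the 6 with the highest H3K27me3 level, chosen after their values were seen, were Sfrp1, Sobp, Foxf1, Chn1, Ndnf and Osbpl6. Sfrp1, a secreted Wnt antagonist, had 170.4 and 155.2 CPM of H3K4me3 against 52.88 and 88.32 CPM of H3K27ac, beside 953.1 and 815.8 CPM of H3K27me3. Foxf1, a transcription factor of lung and gut mesenchyme, had 99.16 and 118.2 CPM of H3K4me3 against 52.5 and 27.22 CPM of H3K27ac, beside 743.2 and 682.9 CPM of H3K27me3. Ndnf, a secreted neurotrophic factor, had 184.0 and 196.0 CPM of H3K4me3 against 47.29 and 82.24 CPM of H3K27ac, beside 849.3 and 553.2 CPM of H3K27me3. In all 3 both H3K4me3 libraries lay above both H3K27ac libraries, and log2 H3K4me3 over H3K27ac was 1.19 ± 0.18, 1.47 ± 0.23 and 1.54 ± 0.18 (SE).

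**Figure D3:**
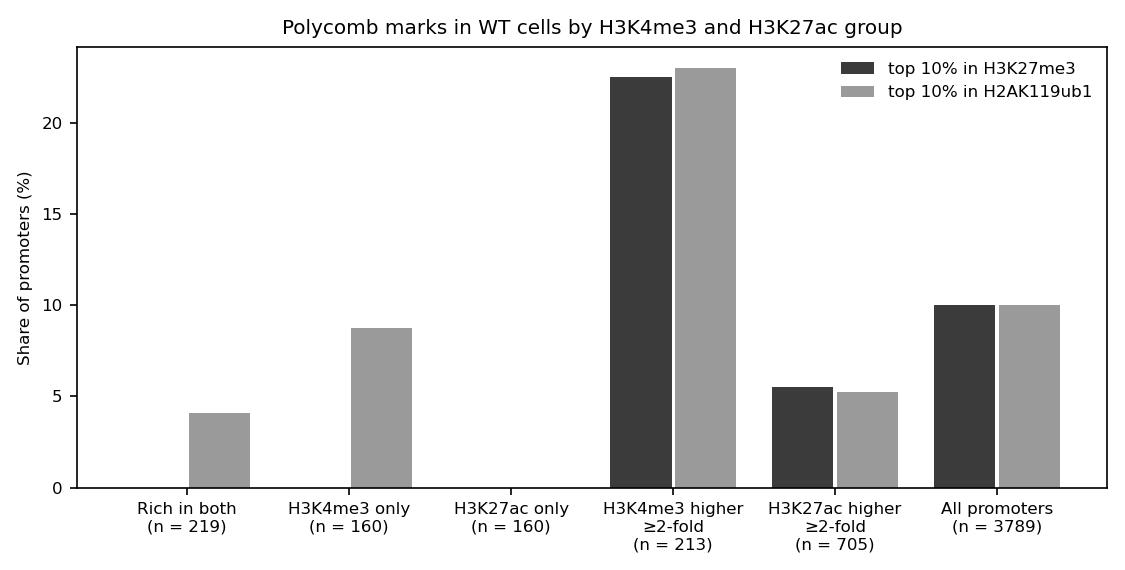
Share of promoters (y axis, %) in the top 10% of H3K27me3 (dark bars) and of H2AK119ub1 (light bars) of WT cells, for the rich classes, the promoters differing by at least 2-fold and all promoters. The bars of the 213 promoters higher in H3K4me3 stand at 22.5% and 23.0%, and no dark bar is seen for the 3 rich classes, where the share is 0.

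A second gene start on the opposite strand within 1 kb, the sign of a bidirectional promoter, was listed in the RefSeq promoter table, which is not complete, for 57 promoters rich in both (26.0%), 56 rich in H3K4me3 only (35.0%) and 30 rich in H3K27ac only (18.8%), against 618 of all promoters (16.3%).

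Genes of stress and immediate early response leaned to H3K27ac. Of 15 measured, 3 were higher in H3K4me3 and 10 in H3K27ac, where 34.6% and 32.6% of all promoters were (median log2 -0.61, beside 0.00 over all promoters). Of the same 15, 6 were rich in both marks and 5 in H3K27ac only, beside 5.78% and 4.22% of all promoters. Fos, an AP-1 factor, had 239.5 and 214.0 CPM of H3K4me3 against 413.0 and 438.1 CPM of H3K27ac. Nr4a1, an orphan nuclear receptor induced by stress, had 124.5 and 135.6 CPM of H3K4me3 against 315.4 and 226.7 CPM of H3K27ac. Myc was an exception, with 760.0 and 696.5 CPM of H3K4me3 against 650.2 and 613.6 CPM of H3K27ac (log2 0.20 ± 0.08), as were Gadd45a and Hmox1. Cytokine and interferon response genes leaned the same way, with 3 of 16 higher in H3K4me3 and 8 in H3K27ac (median log2 -0.41), and the chemokine gene Ccl7 had 105.2 and 88.18 CPM of H3K4me3 against 248.7 and 221.5 CPM of H3K27ac. The 3 that were higher in H3K4me3 were the antigen-processing genes Psmb8, Psmb9 and Tap1, the last pair of which share 1 promoter window. Under both other scalings the medians of both lists stayed below 0, at -0.32 and -0.35 for the first and -0.12 and -0.15 for the second.

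Cartilage and tendon genes also leaned to H3K27ac at 5 of 6 measured, 4 of them by at least 2-fold (median log2 -1.57). Of all promoters, 32.6% were higher in H3K27ac, and 18.7% by at least 2-fold. Flanks and low promoters lean to H3K27ac by themselves, and the part of this background in the list was not tested. Comp, a cartilage and tendon matrix protein, had 34.62 and 40.29 CPM of H3K4me3 against 133.3 and 198.9 CPM of H3K27ac (log2 -2.15 ± 0.19). Prg4, the lubricin of joint surfaces, and Gdf5, a growth factor of joint formation, were low in both marks, at 16.86 and 13.15 CPM of H3K4me3 against 56.6 and 52.42 CPM of H3K27ac for Prg4, close to the flank levels given above. Sox9, the transcription factor of cartilage formation, went the other way, with 401.3 and 394.3 CPM of H3K4me3 against 280.0 and 300.6 CPM of H3K27ac (log2 0.45 ± 0.11).

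Of 18 niche factors measured, 9 were higher in H3K4me3 and 4 in H3K27ac, beside 34.6% and 32.6% of all promoters. Of the same 18, 2 were rich in both, 3 in H3K4me3 only and 2 in H3K27ac only, beside 5.78%, 4.22% and 4.22% of all promoters. Beside Kitl and Cxcl12, Angpt1, a ligand of the TIE2 receptor, was rich in H3K4me3 only, with 435.5 and 427.4 CPM against 258.8 and 285.0 CPM of H3K27ac. The Notch ligands Dll1 and Jag1 were higher in H3K4me3 at log2 1.16 ± 0.14 and 0.79 ± 0.14, and Jag1 was in the top 10% of H3K27me3. Ptgs2, the inducible enzyme of prostaglandin synthesis, had 342.7 and 306.0 CPM of H3K4me3 against 513.5 and 457.8 CPM of H3K27ac, and Angptl4, an inhibitor of lipoprotein lipase, had 324.2 and 256.2 against 486.3 and 644.3 CPM. Vegfa and Fgf7 were rich in both and not called. The list's median log2 of 0.32 was -0.12 when promoters reached only 1 kb to each side.

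Stromal identity genes held 5 of 15 promoters rich in both (Cd44, Foxc1, Itgav, Twist2 and Vim) and 1 rich in H3K27ac only (Tbx18). Of all promoters, 5.78% were rich in both and 4.22% in H3K27ac only. Of these 15, 2 were higher in H3K4me3 and 6 in H3K27ac, the second count being near the 32.6% of all promoters. Their median log2 of -0.21 turned to 0.09 and 0.06 under the other scalings. The median of all promoters moved as well, to 0.30 and 0.27, and stayed above that of the list. Ebf3, a transcription factor of marrow stromal cells, was higher in H3K4me3, with 233.6 and 263.4 CPM against 110.2 and 145.1 CPM of H3K27ac. Of collagen and matrix genes, 6 of 25 were higher in H3K4me3 and 8 in H3K27ac, beside 34.6% and 32.6% of all promoters. These counts turned to 13 and 3 with TMM factors from 10 kb windows. Rich in both were 7 of the 25, beside 5.78% of all promoters. Fn1, fibronectin, had 476.1 and 475.6 CPM of H3K4me3 against 716.4 and 691.8 CPM of H3K27ac, and Thbs1, thrombospondin 1, had 472.1 and 467.8 against 707.1 and 670.1 CPM. Col11a1, a chain of cartilage collagen, was higher in H3K4me3, with 123.6 and 139.6 CPM against 47.66 and 66.03 CPM of H3K27ac. The 2 chains of collagen I differed in sign: Col1a1 had 342.0 and 307.7 CPM of H3K4me3 against 255.8 and 170.0 CPM of H3K27ac (log2 0.62 ± 0.13), and Col1a2 had 417.4 and 360.8 CPM against 621.9 and 623.5 CPM (log2 -0.68 ± 0.09).

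Of 8 osteoblast genes, 4 were higher in H3K4me3 and 3 in H3K27ac, beside 34.6% and 32.6% of all promoters, and adipocyte and limb patterning genes were divided much as all promoters are. Wnt10b, a Wnt ligand that favours bone formation, had 306.3 and 338.4 CPM of H3K4me3 against 221.6 and 231.4 CPM of H3K27ac, and Alpl, alkaline phosphatase, was low in both, with 31.28 and 30.16 CPM and 34.63 and 27.8 CPM. Of 13 adipocyte genes, 5 were higher in H3K4me3 and 4 in H3K27ac. Pparg, the main transcription factor of fat cells, had 378.7 and 403.1 CPM of H3K4me3 against 288.6 and 242.7 CPM of H3K27ac (log2 0.56 ± 0.11). The lipid droplet protein gene Plin2 had 116.8 and 90.11 CPM against 254.0 and 269.6 CPM (log2 -1.34 ± 0.14). Limb patterning genes split 3 to 3 among 8, and those higher in H3K4me3 included Shox2 (log2 0.90 ± 0.10) and Hoxc13 (1.00 ± 0.10). Hoxc10 was not called, with 640.8 and 623.0 CPM of H3K4me3 and 649.0 and 602.3 CPM of H3K27ac.

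Genes of ribosome and mitochondrion leaned to H3K4me3, with 8 of 15 higher in it and 1 in H3K27ac (median log2 0.45), beside 34.6% and 32.6% of all promoters. Ndufaf5, an assembly factor of respiratory complex I, had 476.1 and 445.3 CPM of H3K4me3 against 211.1 and 223.6 CPM of H3K27ac. Of 7 cell cycle genes, 4 were higher in H3K4me3 and none in H3K27ac (median log2 0.59), among them Aurka, a mitotic kinase, with 700.8 and 694.9 CPM of H3K4me3 against 450.2 and 439.9 CPM of H3K27ac, and Ccnb1, cyclin B1, with 269.8 and 259.0 against 145.2 and 104.0 CPM. Developmental regulators of other lineages were low: none of 10 was rich in either mark, their medians were 39.74 CPM of H3K4me3 and 44.33 CPM of H3K27ac, and 7 were in the top 10% of H3K27me3. Otx1, a homeobox factor of the forebrain, was higher in H3K4me3, with 156.9 and 165.0 CPM against 80.06 and 70.95 CPM of H3K27ac. Of blood cell markers 3 of 5, of endothelial and mural markers 2 of 4, and of neuronal genes 2 of 4 were higher in H3K27ac and none in H3K4me3, beside 32.6% and 34.6% of all promoters. Their median levels, of 29.05 to 40.63 CPM of H3K4me3 and 50.56 to 68.66 CPM of H3K27ac, were close to those of the flanks, which lean to H3K27ac by themselves, and the part of this background was not tested. The lysosomal marker Cd68 of macrophages, at 33.86 and 24.25 CPM of H3K4me3 against 122.9 and 152.0 CPM of H3K27ac, exceeded the flank level in H3K27ac. Of the few H3K4 methylation enzymes (2), acetylation enzymes (3) and housekeeping genes (3) measured, none was rich in H3K4me3 only, and Kmt2c, an H3K4 methyltransferase, was higher in H3K4me3 at log2 0.33 ± 0.11, but at -0.02 with promoters of 1 kb to each side.

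The marks had different profiles along the 10 kb. H3K4me3 was narrower, and 58.85 ± 0.599% of its counts lay within 1 kb of the start, against 44.03 ± 0.859% of H3K27ac counts (SD, n = 2 libraries each). The flanks 3 to 5 kb away held 12.44 ± 0.239% of H3K4me3 and 23.29 ± 0.172% of H3K27ac counts. The maximum of the mean profile stood 17.23 ± 0.561 times over those flanks for H3K4me3 and 6.049 ± 0.33 times for H3K27ac. H3K4me3 also leaned further into the gene, with 67.89 ± 0.442% of the counts within 2 kb lying downstream, against 58.31 ± 0.215% for H3K27ac. In each of these measures the 2 libraries of a mark lay closer to each other than to the other mark, but an exact two-sided permutation test of 2 against 2 libraries cannot go below p = 0.33, the value found for each. Both marks peaked downstream of the start, at 275 and 225 bp for the H3K4me3 libraries and at 225 bp in both H3K27ac libraries. Averaged over all genes, H3K27ac had a second maximum upstream, at -275 and -225 bp, with a dip between the peaks. Upstream of the start, mean H3K4me3 was highest in the bin next to the start, centred at -25 bp, in both libraries. In the 3250 promoters rich in neither mark, upstream H3K27ac was also highest at -25 bp in both libraries, with no dip.

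**Figure D4:**
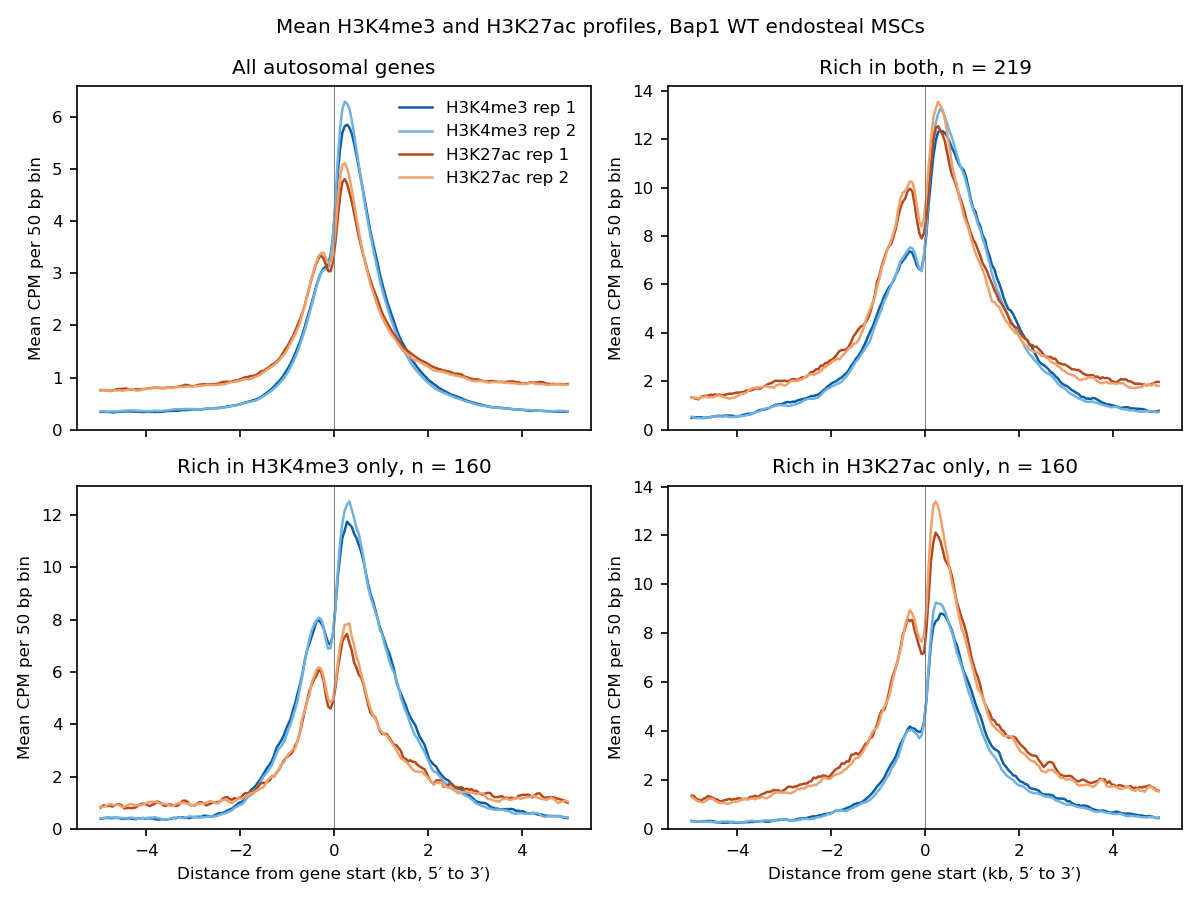
Mean profiles of the 4 libraries in CPM per 50 bp bin (y axis, linear) against the distance from the gene start in kb (x axis), for all autosomal genes and the 3 rich classes. Both marks peak downstream of the start, H3K27ac keeps a higher flank level in each panel, and both marks show an upstream peak in the promoters rich in both.

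The rich classes differed in shape as well as in level. In promoters rich in both, 51.4 ± 1.52% of H3K4me3 and 46.49 ± 1.7% of H3K27ac counts lay within 1 kb, against 60.87 ± 0.178% and 42.42 ± 0.508% in promoters rich in neither. H3K4me3 was thus spread more widely and H3K27ac less widely in promoters rich in both. The classes were cut on counts that include those within 1 kb, in the same libraries. These shares and widths are therefore not independent of the class rule, and its part in them was not tested. Both marks had an upstream maximum at -325 bp in every library there and in promoters rich in H3K4me3 only. In promoters rich in H3K27ac only, H3K27ac kept the upstream maximum, at -375 and -325 bp, while upstream H3K4me3 was highest at -25 bp, with 71.7 ± 0.541% of its counts within 2 kb downstream, against 59.53 ± 0.307% for H3K27ac. In promoters rich in H3K4me3 only the downstream shares were 63.6 ± 0.472% and 57.36 ± 0.128%.

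Promoter by promoter, the ratio of counts within 1 kb to counts 1 to 5 kb away was tested between the marks relative to the typical gene. Of 3771 genes, 1098 (29.1%) were more focal in H3K4me3 and 838 (22.2%) in H3K27ac (edgeR quasi-likelihood test of the interaction, Benjamini-Hochberg adjusted p at or under 0.05). Of the 219 promoters rich in both, 139 (63.5%) were relatively more focal in H3K27ac and 22 (10.0%) in H3K4me3. These counts too are not independent of the class rule. Slc38a2, an amino acid transporter, is an example: 31.18% and 33.77% of its H3K4me3 counts lay within 1 kb, against 58.55% and 62.99% of its H3K27ac counts (log2 ratio -2.55 ± 0.14). Tsc22d2 had 27.07% and 28.82% against 47.71% and 53.01% (-2.25 ± 0.13). At these genes H3K4me3 was the broader mark, the reverse of the average. Mtus1, a microtubule-associated protein, lay at the other end, with 81.84% and 84.22% of H3K4me3 counts within 1 kb against 30.58% and 27.94% of H3K27ac counts (2.71 ± 0.21). Mtss2, Mgst3 and Prune2 followed, at 2.24 to 2.41. Gpsm3 and Fth1 were called more focal in H3K27ac (-2.96 ± 0.18 and -2.70 ± 0.16), but their signal lay away from the listed start, with 3.69% and 3.08% of the H3K4me3 counts of Gpsm3 within 1 kb. Among lists, 8 of 15 stromal identity promoters, Vim and Foxc1 among them, and 5 of 8 limb patterning promoters were relatively more focal in H3K27ac, and 7 of 15 ribosome and mitochondrion promoters in H3K4me3.

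The ratio of downstream to upstream counts was tested between the marks in the same way, and fewer genes were called. Of 3760 tested, 700 (18.6%) lay further downstream in H3K4me3 and 509 (13.5%) in H3K27ac. Each side was scaled to its own total, so further downstream is meant here and below relative to the typical gene. It is not a plain difference in downstream share, which is larger for H3K4me3 on average. Both counts were lower with either H3K4me3 library left out. Col6a1, a chain of collagen VI, had 91.84% and 93.92% of its H3K4me3 counts within 2 kb downstream, against 48.11% and 48.97% of its H3K27ac counts (log2 ratio 3.21 ± 0.19). Thbs1 had 79.67% and 78.55% against 33.81% and 30.81% (2.39 ± 0.16). Of the matrix genes, 12 of 25 were further downstream in H3K4me3 and 2 in H3K27ac, with Emilin1, Col6a2, Mmp2 and Thbs2 among the 12. Of niche factors 8 of 18, and of immediate early genes 8 of 15, did the same, with Junb at 82.82% and 84.05% of H3K4me3 counts against 58.1% and 57.11% of H3K27ac counts. Avpi1 and Srgap3 were named with Col6a1 and Thbs1 by lowest p, at 2.85 ± 0.17 and 2.83 ± 0.18. Of the promoters rich in both, 35.2% lay further downstream in H3K4me3 and 27.4% in H3K27ac. In the opposite direction Entpd1, the ectonucleotidase CD39, had 11.01% and 9.18% of its H3K4me3 counts downstream, against 48.63% and 44.52% of H3K27ac counts (-3.56 ± 0.27). Herc3, Gtdc1 and Ttc41 did so too, at -4.14, -2.63 and -2.11.

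**Figure D5:**
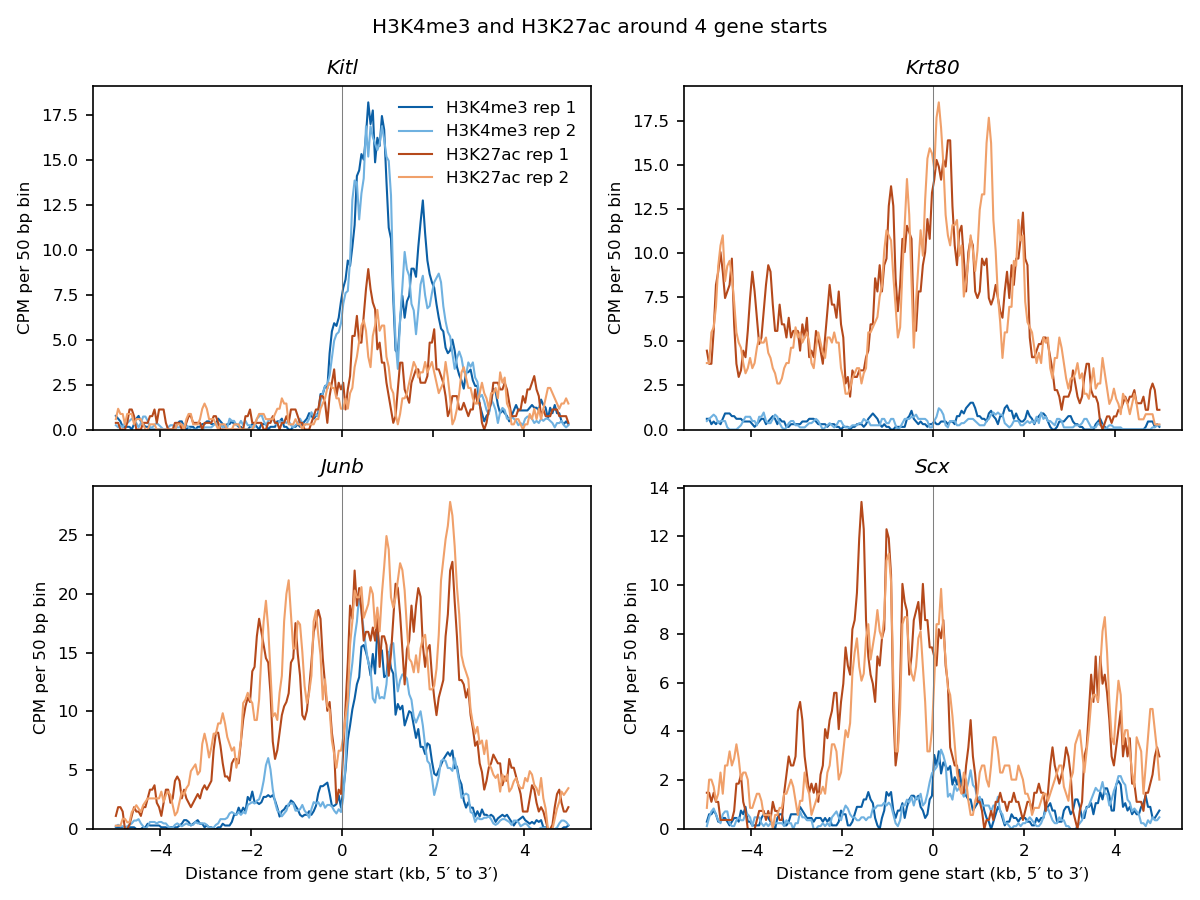
CPM per 50 bp bin (y axis, linear) against distance from the start in kb (x axis) for Kitl, Krt80, Junb and Scx in the 4 libraries. At Kitl the H3K4me3 lines rise above the H3K27ac lines inside the gene, at Junb H3K27ac fills both sides while H3K4me3 lies mostly downstream (82.82% and 84.05%), and at Krt80 the H3K4me3 lines do not go above 1.519 CPM per bin.

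The same contrast was fitted in the cKO libraries, which had no part in the WT calls. Of the 213 promoters with at least 2-fold more H3K4me3 in WT cells, 188 were called higher in H3K4me3 in cKO cells. Of all 3764 promoters tested in cKO cells, 32.9% were called higher in H3K4me3. The opposite call was made at 1 of the 213. Of the 705 with at least 2-fold more H3K27ac, 606 were called higher in H3K27ac in cKO cells, as were 31.3% of all promoters tested there. The opposite call was made at 16 of the 705. In WT cells 543 of the 705 had no focal H3K27ac signal, with medians of 15.92 CPM of H3K4me3 and 47.25 CPM of H3K27ac. A background that leans to H3K27ac could recur in the cKO libraries, and its part in the 606 was not tested. Log2 H3K4me3 over H3K27ac in cKO cells was 1.52 ± 0.12 for Kitl, 0.54 ± 0.08 for L3mbtl3, -2.57 ± 0.12 for Krt80, -0.68 ± 0.12 for Igfbp6 and -0.32 ± 0.10 for Scx (SE), against 1.45 ± 0.11, 1.49 ± 0.11, -4.20 ± 0.13, -2.86 ± 0.13 and -2.27 ± 0.13 in WT cells; the difference between genotypes was not tested.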

How the data were processed

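The authors deposited 1 table of raw read counts, per the file headers, in 50 bp bins over the 10 kb around each gene start. Build GRCm38 and the tools bedtools 2.30.0, SAMtools 1.9, Picard 2.25.5, Bowtie2 2.4.5 and cutadapt 1.18 are listed in the submitters' processing notes, and their settings were not given in the sources used. Isolated runs of up to 3 filled bins were 3 bins long in 98.7% of cases, so each read fills 3 bins and counts are not independent; the dispersion takes this up, and testing 1 bin in 3 is among the alternatives.

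Groups follow the titles. Genes were named by a RefSeq start (GRCm38.p6) within 500 bp on the same strand, which named 3187 of 3789 (84.1%); windows shifted by 20 kb named 115. Promoter windows overlapped another gene's at 296 genes, whose reads cannot be told apart. Bins 61 to 140 were summed and tested with edgeR 4.0.16 in R 4.3.3 (glmQLFit with robust dispersion, glmQLFTest, filterByExpr minimum count 10, which removed 22 promoters). Library sizes were window counts, with TMM factors of 1.094 and 1.099 for H3K4me3 and 0.9094 and 0.9142 for H3K27ac from promoters. SEs come from the fit. Counted over 1 bin in 3, where a read enters once, the replicates of a mark differed by more than counting noise (chi-square over degrees of freedom 2.642 for H3K4me3 and 2.452 for H3K27ac), so each counts as 1 sample. Shape tests used the interaction of mark and position on library-by-position counts. A focal signal has at least 2 times the density within 1 kb as at 3 to 5 kb. The scripts were tested on simulated data. H3K27me3 and H2AK119ub1 levels come from 2 WT libraries each and are CPM of the window totals without TMM factors.

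The members, gene lists and tests were chosen with earlier results of these data known. Leaving out predicted, clone, receptor-cluster and unnamed genes and overlapping windows, the genes named are the 8 most different with no overlap of libraries in each single-mark class, the 8 highest in both, the 5 of lowest p in each direction at 2-fold, the 4 of lowest p in each shape test and direction, from each list the 4 highest and the 2 of lowest p, and the measured ones of 8 stromal genes. Other genes were named after their values were seen, and 1 gene that the rule names is not reported here.

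Alternatives were DESeq2 1.42.0, other scalings, no filter, promoters of 1 or 5 kb to each side, all 16 libraries in 1 fit, the replicate block, each library left out, narrower cores, other class cuts, and no overlapping windows. The restriction to focal promoters was chosen after seeing the data.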

Additional observations from a re-analysis of the deposited data

How the results depend on the processing

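Promoters at least 2-fold higher in H3K4me3 numbered 213, and 609 with TMM factors from 10 kb windows, 558 without TMM factors, 359 with promoters of 1 kb and 86 with promoters of 5 kb to each side. Counts higher in H3K27ac were 666, and 207 at 2-fold, among promoters focal in either mark, a restriction set by the signals compared and so no independent count. Promoters rich in both numbered 97 with the top 5% and 500 with the top 20%. Without the promoters rich in either mark, shares of H3K4me3 and H3K27ac counts were 60.87% and 42.42% within 1 kb, 77.54% and 60.03% within 2 kb, and 68.87% and 58.64% downstream. With 1 library left out, where the lone library is assumed to vary like the other mark's pair, promoters higher in H3K4me3 numbered 974 to 1314 and in H3K27ac 1026 to 1172, at 2-fold 215 to 264 and 654 to 711, relatively more focal 793 to 1014 and 631 to 724, and further downstream 458 to 738 and 331 to 545. DESeq2 gave 1183 and 1179, 200 and 709 at 2-fold; all 16 libraries in 1 fit gave 949 and 1069, with 209 and 706 at 2-fold. Replicate numbers did not pair the samples (correlation of replicate differences between marks 0.059); the replicate block gave 1297 and 1222, 218 and 706 at 2-fold, 1070 and 821 more focal, and 723 and 535 further downstream.

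Of 1291 values of the named genes under these alternatives, 1186 kept direction and call, 89 lost the call and 16 changed sign. These are log2 values of promoter level, also for genes whose shape ratio is given above. Signs changed with window TMM factors for Mmp14 (0.10), Klf9 (0.02), B2m (0.05) and Irs2 (0.12), without TMM factors for Mmp14 (0.07), B2m (0.02) and Irs2 (0.09), at 1 kb for Kmt2c (-0.02) and Herc3 (-0.98, 0.79 at 2 kb), and at 5 kb for Foxc1 (0.05), Klf9 (0.07), Irs2 (0.09), Mtss2 (-0.35, 0.99 at 2 kb), Gpsm3 (0.56, -0.38 at 2 kb), Mgst3 (-0.15, 0.74 at 2 kb) and Tsc22d2 (0.33, -0.51 at 2 kb); the cause was not tested. H3K27ac depth, under that of H3K4me3 in both libraries, limits calls at low promoters, and a shift common to all promoters is not detectable.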
